A study of Mus musculus with 13 samples.

Results

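Eed knockout (KO) organoids were compared with wild-type (WT) organoids of mouse small intestine, which are 4 of the 13 RNA-seq libraries of the series. The members were chosen by their labels alone, as the 2 libraries of Eed KO organoids and the 2 libraries of WT organoids of sequencing run 385, named below by genotype and title number. WT organoids were grown from crypts that carry the AhCre transgene, with the strain label FVB. Eed KO organoids were grown from crypts that carry AhCre and floxed Eed alleles, with the genotype label Eed-/- and the strain label C57BL/6-FVB. All 4 cultures received beta-naphthoflavone for 10 days, so the controls carry both the transgene and the inducer. AhCre is a recombinase under a promoter that this compound switches on through the aryl hydrocarbon receptor. The labels give no age, and no label tells whether a group's 2 libraries came from separate cultures or animals, so p-values measure only the spread between these libraries. Because strain labels differ between the genotypes, 3111 genes on chromosomes X and Y or of biotype pseudogene were left out of the 23969 genes listed, and 20858 were kept. Strain and genotype cannot be told apart for the genes that remain. The other 9 libraries are crypts, of which 4 of the same run serve below as a comparison.

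Polycomb repressive complex 2 (PRC2) methylates lysine 27 of histone H3 and so keeps developmental genes silent in cells that do not use them. EED is the subunit that binds the methylated lysine and that the catalytic subunits EZH2 and EZH1 need for activity. Intestinal organoids are epithelial cultures in Matrigel, in which stem cells divide and give rise to Paneth, goblet, enteroendocrine, tuft and absorptive cells without mesenchyme or immune cells. Genes held by PRC2 in mammalian cells often have promoters rich in the dinucleotide CG.

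The upstream promoters of 3 genes that rose in Eed KO organoids and of 1 that fell are shown, since their genes carry the results below and their CG content differs. Each run is the 250 bases before a RefSeq start in GRCm38.p6, 5′ to 3′ on the strand of the gene, with every CG in capitals. CG reads the same on both strands. Hoxd13 encodes a posterior homeobox factor, and its stretch on the plus strand at chr2:74667975-74668224 holds 31 CG. Zic1, a zinc finger factor of neural tissue, has 27 in its stretch on the minus strand at chr9:91365769-91366018. Cdkn2a has 2 listed starts on the minus strand, the upstream one at chr4:89294620-89294869 with 40 CG and the downstream one at chr4:89282193-89282442 with 7. Fabp1, an enterocyte fatty acid binding protein, has 2 in its stretch on the plus strand at chr6:71199629-71199878. Over the first listed start of all 27025 genes of the promoter table the median was 6 CG, with quartiles of 2 and 16.
Hoxd13: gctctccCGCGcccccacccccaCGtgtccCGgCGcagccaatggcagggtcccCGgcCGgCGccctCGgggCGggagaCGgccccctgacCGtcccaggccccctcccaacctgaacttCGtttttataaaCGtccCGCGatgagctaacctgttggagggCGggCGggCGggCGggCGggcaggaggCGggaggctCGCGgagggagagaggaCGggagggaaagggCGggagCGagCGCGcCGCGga
Zic1: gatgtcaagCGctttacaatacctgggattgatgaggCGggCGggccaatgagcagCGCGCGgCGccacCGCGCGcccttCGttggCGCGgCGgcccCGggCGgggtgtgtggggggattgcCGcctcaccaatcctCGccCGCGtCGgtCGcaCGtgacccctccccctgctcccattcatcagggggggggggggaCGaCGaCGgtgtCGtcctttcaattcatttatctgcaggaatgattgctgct
Cdkn2a upstream start: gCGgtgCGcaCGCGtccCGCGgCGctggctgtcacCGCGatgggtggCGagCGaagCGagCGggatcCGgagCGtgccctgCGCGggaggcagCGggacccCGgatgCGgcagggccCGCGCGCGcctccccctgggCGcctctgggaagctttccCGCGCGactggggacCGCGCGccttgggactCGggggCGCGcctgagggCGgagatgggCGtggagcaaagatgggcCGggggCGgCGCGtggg
Cdkn2a downstream start: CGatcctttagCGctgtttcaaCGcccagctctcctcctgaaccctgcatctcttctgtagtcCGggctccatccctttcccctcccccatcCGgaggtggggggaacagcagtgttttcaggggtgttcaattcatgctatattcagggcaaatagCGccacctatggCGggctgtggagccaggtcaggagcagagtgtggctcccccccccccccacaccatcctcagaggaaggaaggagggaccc
Fabp1: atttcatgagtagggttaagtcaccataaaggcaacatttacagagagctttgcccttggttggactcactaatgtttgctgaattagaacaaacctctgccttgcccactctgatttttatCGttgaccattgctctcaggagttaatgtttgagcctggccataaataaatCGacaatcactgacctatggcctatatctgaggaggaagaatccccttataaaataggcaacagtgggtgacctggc
The counts are a description of these stretches only. The promoter table matched 557 of the 771 genes that rose from a WT mean under 1 CPM, or 72.2%, and 79.3% of all genes tested, so a comparison of CG content between classes of genes was void and is not given. The genes shown were chosen after their values and CG content were seen, so the difference in CG among them was fixed by the choice.

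CPM values below are scaled by TMM library sizes. The 4 libraries held between 11531873 and 13752066 counts. Mitochondrially encoded transcripts took 7.98% to 9.83% of counts, with no separation of the groups. A count above 0 was seen for 16280 and 16372 kept genes in Eed KO and for 14991 and 14859 in WT organoids. Xist and the Y-linked Ddx3y gave Eed KO organoids a male and WT organoids a female pattern, so sex and genotype cannot be told apart either, and leaving out X and Y genes does not remove sex differences elsewhere. Markers of intestinal epithelium were high in all 4 libraries. Epcam stood at 1023 and 1091 CPM (counts scaled to a library of 1000000 counts) in the Eed KO libraries, given here and below in the order of their title numbers, and at 1219.8 and 1211 in WT. Vil1, the microvillus protein villin, stood at 673 and 769 CPM in Eed KO and 653 and 632 in WT, and neither gene was called. The 32 immune markers summed to 10.2 and 8.09 CPM in Eed KO and 6.92 and 6.75 in WT, with Cd3e at 0 in all 4 and Ptprc at 3 and 6 counts in Eed KO and 0 in WT. The mesenchymal collagen Col3a1 and the endothelial Cdh5 were at 0 in all 4 libraries, and Col1a1 had at most 4 counts. The whole list of mesenchyme, muscle and endothelium markers summed to 58.9 and 34.2 CPM in Eed KO and 12.8 and 18.8 in WT, with Fn1 at 45.2 and 17.8 CPM in Eed KO and 0.304 and 0.351 in WT. Of its 7 tested members 3 rose, or 1 without WT 1, and 1 fell. The part of such cells in the results was not tested.

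Eed (ENSMUSG00000030619, chromosome 7, 89954656 to 89980983, GRCm38) checks the labels. Its transcript stood at 19.3 and 31.3 CPM in Eed KO and at 74.3 and 63.8 CPM in WT organoids. Both Eed KO libraries were below both WT libraries, where groups did not overlap in 59.2% of all genes tested. The log2 fold change was -1.45 ± 0.23 (SE, adjusted p = 0.00699). RNA remained in both Eed KO libraries, and undeleted cells and transcripts without the deleted exons cannot be told apart in these data. Of the other PRC2 genes, Ezh2 stood at 105 and 95.9 against 107 and 108 CPM and Ezh1 at 35.4 and 47.3 against 39.5 and 43.9, and neither was called. Suz12, the zinc finger subunit of the core complex, was called lower at 179 and 174 against 232 and 238 CPM, with a log2 fold change of -0.41 ± 0.11 (adjusted p = 0.0401). That call was lost without any 1 of the 4 libraries, with adjusted p = 0.0733 without Eed KO 1, 0.0889 without Eed KO 2, 0.162 without WT 1 and 0.171 without WT 2. In all, 2 of the 11 PRC2 genes tested were called, both lower (18.2%, against 4.43% of all genes tested), with a median log2 fold change of -0.01. PRC1 is the complex that ubiquitinates histone H2A and reads the PRC2 mark. Of 20 PRC1 genes, 6 rose (30%, against 13.4% of all genes tested) and none fell. Cbx6, which encodes a reader subunit, rose from 5.86 and 9.82 to 30.6 and 22.1 CPM (1.76 ± 0.29, adjusted p = 0.00732). Scmh1 rose from 29.2 and 26.0 to 63.7 and 55.6 CPM (1.11 ± 0.14, adjusted p = 0.00258). The count of PRC1 genes fell to 2 without WT 1, 3 without WT 2 and 3 without Eed KO 1, and to 3 under another setting.

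Eed KO organoids gained more transcripts than they lost. Of 12384 genes tested, 1659 (13.4%) were called higher in Eed KO and 548 (4.43%) lower by the edgeR quasi-likelihood test at an adjusted p under 0.05. The median log2 fold change over all genes tested was -0.01. Genes called higher were mostly low or silent in WT organoids, with a median WT level of 1.31 CPM against 30.0 over all genes tested. WT means were under 1 CPM for 771 of them, and 137 had no WT count at all. Genes called lower had a median WT level of 77.5 CPM. The filter on low counts let genes near 0 in WT be tested only through the Eed KO libraries. Genes near 0 in Eed KO were likewise tested only through WT. Part of this contrast in WT levels was therefore fixed by the filter. The changes also differed in size, with a median log2 fold change of 2.25 among genes called higher and -0.77 among those called lower. A fold over 8 was fitted for 605 of the former and 41 of the latter. Without WT 1 the counts were 1025 higher and 220 lower, and without Eed KO 1 the lower count was 306. In a bulk culture, more RNA per cell and more cells of a type cannot be told apart.

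**Figure D1:**
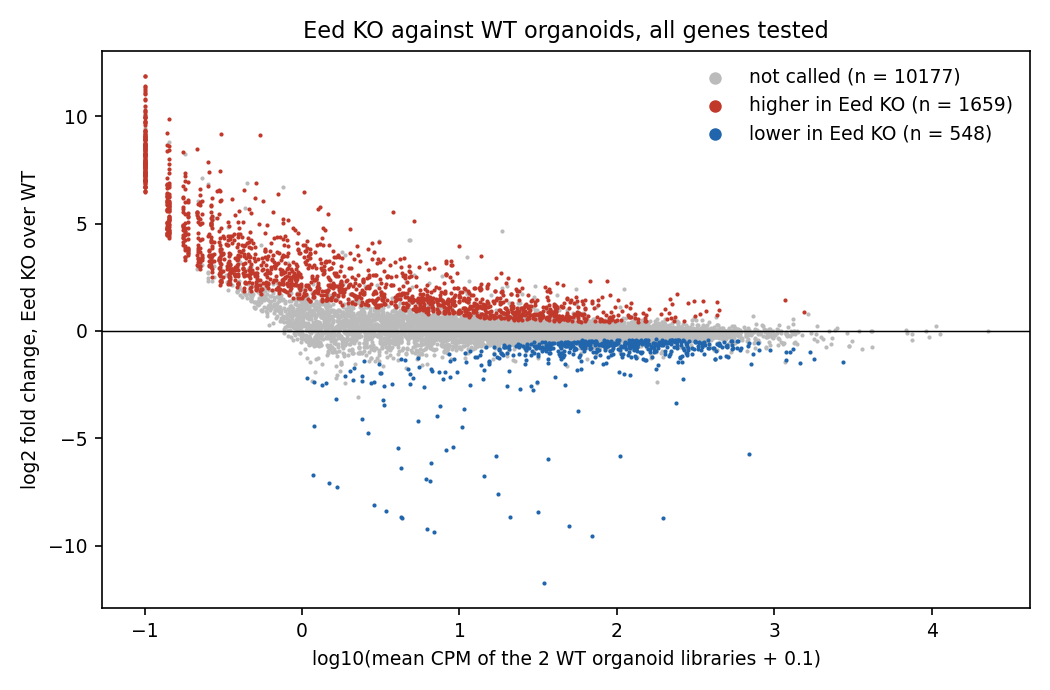
Log2 fold change of Eed KO over WT organoids for all 12384 genes tested, against log10 of the mean WT level in CPM plus 0.1. The 1659 genes called higher lie mostly at the left, at a median of 1.31 CPM in WT, and the 548 called lower at a median of 77.5 CPM.

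The Hox genes, which encode the homeobox factors that set position along the body axis, were mostly called among those tested. Of 29 tested, 25 rose (86.2%, where 13.4% of all genes tested rose) and none fell. The median log2 fold change was 6.87, or 4.98 with the 15 genes without a WT count set at a bound from 3 counts over the WT group. At least those 15 passed the filter on low counts only through the Eed KO libraries, so these values describe the genes that passed. The 36 kept Hox genes together summed to 266 and 231 CPM in Eed KO and 15.7 and 15.6 CPM in WT organoids. Hoxa10 (ENSMUSG00000000938, chromosome 6, 52231197 to 52240854) stood at 41.2 and 34.7 CPM in Eed KO and had no count in either WT library, which makes it at least 311-fold higher (adjusted p = 7.43e-05). Hoxa9 stood at 28.0 and 21.6 CPM and was at least 203-fold higher (adjusted p = 0.000163). Hoxd13, whose promoter is shown above, stood at 26.9 and 17.8 CPM and was at least 183-fold higher (adjusted p = 0.000365). All of these were silent in both WT libraries. Hoxb13 stood at 12.2 and 24.2 CPM and was at least 148-fold higher (adjusted p = 0.00169). The Hoxa, Hoxb, Hoxc and Hoxd clusters each had called members.

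Developmental factors outside the Hox clusters rose as well. Of 28 other homeobox genes tested, 22 rose and none fell (median log2 fold change 3.58, 3.36 at the bound). En2, a factor of midbrain patterning, stood at 22.5 and 18.2 CPM in Eed KO and 0.0761 and 0 CPM in WT, with 1 WT count in all, a ratio of 501-fold, with an exact 95% counting interval of 89.4 to 19808 (adjusted p = 0.000115). Lhx2 stood at 4.73 and 5.53 CPM with no WT count and was at least 42.0-fold higher (adjusted p = 0.00114). Of 18 Pax, Irx, sine oculis and other paired-type factors, 14 rose, and 1 fell. Pax3, which specifies muscle precursors and neural crest, stood at 11.7 and 13.5 CPM with no WT count, at least 103-fold higher (adjusted p = 0.000343). Sim2, a bHLH-PAS factor kept in the same list, stood at 11.8 and 11.8 CPM with no WT count, at least 96.6-fold higher (adjusted p = 0.000343). The gene that fell was Prrx1, a factor of limb and connective tissue named here after its values were seen, at 5.29 and 6.03 CPM against 17.8 and 12.6 in WT (adjusted p = 0.00843), and that call was lost without WT 1. Of 25 Sox, Tbx, Zic, Fox, Gata and bHLH factors, 21 rose and none fell. Tbx15 stood at 18.5 and 16.5 CPM, at least 144-fold higher (adjusted p = 0.000196), and Zic1 at 8.34 and 9.25 CPM, at least 71.9-fold higher (adjusted p = 0.000543), each with no WT count. Across the 4 lists of developmental factors, 82 of 100 tested members rose. Of those 100, 46 had no WT count and passed the filter on low counts only through Eed KO. Members with few WT counts, such as En2, passed in the same way. The count of 82 therefore describes the members and is no measure against all genes. Of the 1145 genes tested with a WT mean under 1 CPM, 771 rose. Another 106 kept members were too low to be tested, at 38 counts or fewer over the 4 libraries, so a rise was not shown for every developmental factor.

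**Figure D2:**
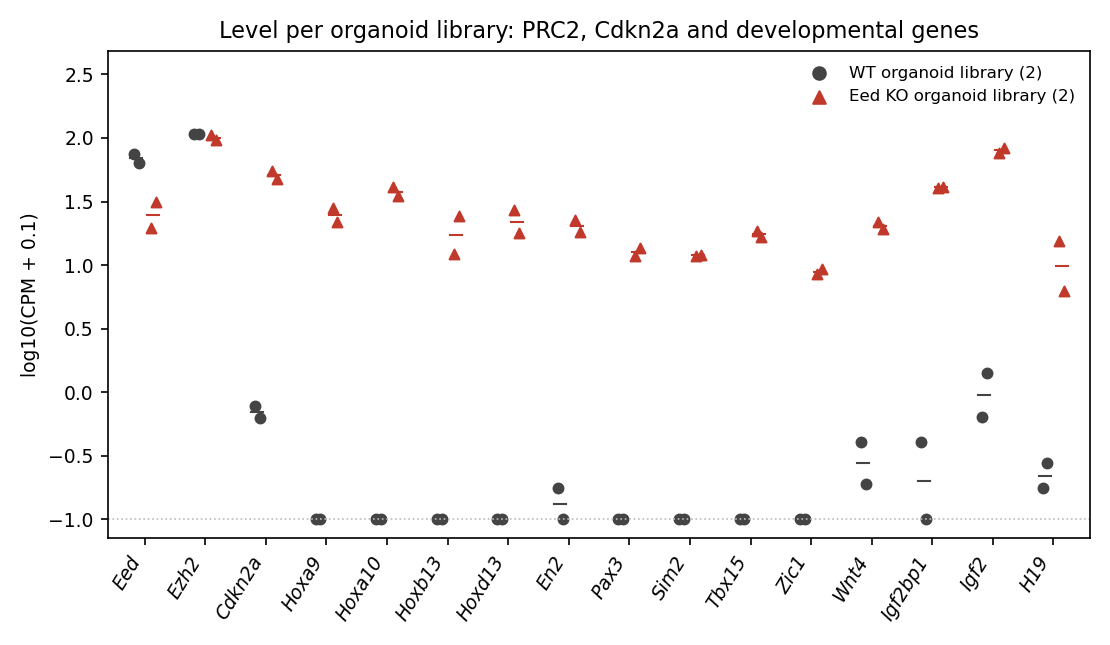
Level of 16 genes in each organoid library, as log10 of CPM plus 0.1, with circles for the 2 WT and triangles for the 2 Eed KO libraries and a short line at the mean of each pair. The dotted line marks 0 CPM, where Hoxa9, Hoxa10, Hoxb13, Hoxd13, Pax3, Sim2, Tbx15 and Zic1 lie in both WT libraries.

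The cyclin-dependent kinase inhibitor gene Cdkn2a, a known PRC2 target that encodes p16Ink4a and p19Arf, rose steeply. Cdkn2a (ENSMUSG00000044303, chromosome 4, 89274471 to 89294653) stood at 54.6 and 47.3 CPM in Eed KO and at 0.685 and 0.526 CPM in WT organoids, a log2 fold change of 6.36 ± 0.23 (adjusted p = 1.88e-05). The counts do not separate its 2 starts. Of 8 CDK inhibitor genes, 2 rose (25%, against 13.4% of all genes tested) and 1 fell (12.5%, against 4.43%). Cdkn1a, which encodes p21 and is induced by p53, rose from 123 and 169.8 to 248 and 274 CPM (0.84 ± 0.17, adjusted p = 0.0152). Its call was lost without WT 1 (adjusted p = 0.0718) and without Eed KO 2 (adjusted p = 0.0547). Cdkn1b, which encodes p27, fell from 110.2 and 103 to 66.6 and 65.4 CPM (-0.69 ± 0.11, adjusted p = 0.00652).

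Most tested targets of the tumour suppressor p53 rose, while Trp53 transcript itself stood at 132 and 137 CPM in Eed KO and 124 and 134 in WT and was not called. Of 27 p53 targets tested, 18 rose (66.7%, against 13.4% of all genes tested), 1 fell and 8 were not called, with a median log2 fold change of 1.00. The rise of Phlda3, an inhibitor of AKT signalling, was from 7.07 and 5.61 to 57.7 and 36.7 CPM (2.89 ± 0.27, adjusted p = 0.00085). Ccng1, which encodes cyclin G1, was among the 15 genes with the largest gain in CPM and rose from 217 and 215 to 697 and 516 (1.49 ± 0.17, adjusted p = 0.0015). Trp53inp1 rose from 47.3 and 35.8 to 235 and 161 CPM (2.25 ± 0.23, adjusted p = 0.0015), and Plk2, a polo-like kinase, from 22.7 and 23.5 to 98.0 and 71.0 (1.87 ± 0.18, adjusted p = 0.000819). In each of these genes both Eed KO libraries were above both WT libraries, as in every gene called higher, so this adds nothing to the calls. Groups did not overlap in 59.2% of all genes tested. The target that fell was Sesn1, a stress-induced sestrin named after its values were seen, at 30.4 and 30.1 CPM against 52.6 and 39.6 in WT, and its call was lost without Eed KO 1, Eed KO 2 or WT 1.

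Genes of the dividing cell differed by list. None of 35 replication genes was called, where 13.4% of all genes tested rose and 4.43% fell, and 33 of them had a fold change below 0, with a median log2 fold change of -0.13. Of 39 G2 and mitosis genes 1 rose and 3 fell (median -0.18), with 6 called lower without Eed KO 1, 1 without Eed KO 2, none without WT 1 or WT 2, and 2 to 5 under other settings. The one called higher was not called without Eed KO 1, WT 1 or WT 2. Mki67, the standard marker of cycling cells, stood at 588 and 631 CPM in Eed KO and 649 and 565 CPM in WT, a log2 fold change of 0.01 ± 0.13 (adjusted p = 0.983). Of 22 G1 cyclin, E2F and RB family genes, 2 rose (9.09%) and 4 fell (18.2%, against 4.43% of all genes tested). Ccnd2, which encodes cyclin D2, rose from 391 and 469 to 1065 and 1141 CPM (1.36 ± 0.15, adjusted p = 0.00134). E2f2, an activating E2F factor, fell from 78.6 and 75.7 to 35.8 and 46.9 CPM (-0.90 ± 0.16, adjusted p = 0.00813). The lower count was 2 without WT 1 and 2 without WT 2, and the higher count was 1 without WT 1.

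On the goblet, enteroendocrine and tuft cell lists all called members rose, and Paneth cell genes split. Retnlb, a goblet cell peptide gene kept on the stomach and colon list, fell, with values given below. Goblet cells make mucus. Of 28 goblet cell genes, 21 rose (75%, against 13.4% of all genes tested) and none fell, with a median log2 fold change of 1.23. Tff3, the trefoil peptide secreted with mucin, rose from 295 and 321 to 758 and 861 CPM (1.39 ± 0.14, adjusted p = 0.000849). The chemokine gene Ccl6 rose from 14.7 and 12.4 to 159.6 and 146 CPM (3.49 ± 0.14, adjusted p = 2.77e-05), and Spink4, a peptide of goblet cells, from 214 and 269 to 736 and 836 (1.70 ± 0.16, adjusted p = 0.000726). Muc2, the main mucin, stood at 137 and 287 CPM in Eed KO and 42.4 and 67.8 CPM in WT. The Muc2 groups did not overlap, as in 59.2% of all genes tested, but the Eed KO libraries differed from each other. Its log2 fold change of 1.94 ± 0.46 was not called (adjusted p = 0.0619), while DESeq2 gave an adjusted p of 0.012 and limma-trend 0.0423. Spdef, which drives goblet and Paneth maturation, rose from 19.1 and 16.8 to 47.2 and 38.8 CPM (1.26 ± 0.16, adjusted p = 0.00263). Atoh1, the factor that commits cells to all secretory fates, rose from 20.3 and 18.7 to 42.3 and 38.6 CPM (1.05 ± 0.14, adjusted p = 0.00325). Hes1, the Notch effector that represses Atoh1, stood at 71.0 and 76.9 CPM in Eed KO and 60.1 and 78.3 in WT with overlapping groups and was not called.

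Tuft cells are chemosensory cells. Among the tested genes of their list 81.8% rose, against 13.4% of all genes tested. Of 22 tuft cell genes, 18 rose and none fell, with a median log2 fold change of 2.55, and the count was 11 without WT 1. Their cation channel gene Trpm5 (ENSMUSG00000009246, chromosome 7, 143069153 to 143094642) stood at 8.18 and 10.2 CPM in Eed KO and 0.913 and 2.28 in WT (2.54 ± 0.42, adjusted p = 0.00695). Dclk1, the most used tuft cell marker, stood at 9.22 and 8.50 against 0.532 and 2.54 CPM (2.55 ± 0.58, adjusted p = 0.0275). The WT levels of Dclk1 differed from each other, and its call was lost without Eed KO 1 (adjusted p = 0.1) and without Eed KO 2 (adjusted p = 0.0674). Ptgs1, which encodes cyclooxygenase 1, rose from 0.532 and 0.438 to 8.34 and 4.62 CPM (3.71 ± 0.47, adjusted p = 0.00246), and the G protein regulator Rgs13 from 0.456 and 0.701 to 4.57 and 5.20 (3.07 ± 0.40, adjusted p = 0.00265). Pou2f3, the factor that specifies tuft cells and named after its values were seen, stood at 4.49 and 3.63 CPM in Eed KO and 1.98 and 2.80 in WT and was not called (adjusted p = 0.185).

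Enteroendocrine cells secrete hormones. Of 37 enteroendocrine genes 19 rose (51.4%, against 13.4% of all genes tested) and none fell, with a median log2 fold change of 1.25. Sst (ENSMUSG00000004366, chromosome 16, 23889581 to 23890844), which encodes somatostatin, stood at 63.1 and 68.4 CPM in Eed KO and 0.989 and 1.40 in WT (5.78 ± 0.21, adjusted p = 1.88e-05). Sct, which encodes secretin, stood at 23.9 and 20.6 CPM in Eed KO and 3.42 and 2.98 in WT (2.79 ± 0.22, adjusted p = 0.000376). Chga, the granule protein chromogranin A, rose from 38.5 and 33.4 to 146 and 113 CPM (1.85 ± 0.16, adjusted p = 0.000591). Pax6, a homeobox factor of endocrine differentiation, rose from 1.37 and 1.40 to 22.2 and 22.1 CPM (3.99 ± 0.23, adjusted p = 0.000115). Neurog3, which marks endocrine progenitors, stood at 20.6 and 13.5 CPM in Eed KO and 20.5 and 18.0 in WT. The Neurog3 groups overlapped and the gene was not called (adjusted p = 0.684).

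Paneth cells lie at the crypt base and secrete antimicrobial peptides. Of 29 Paneth cell genes, 13 rose (44.8%, against 13.4% of all genes tested), with a median log2 fold change of 1.07. Another 4 fell (13.8%, against 4.43%), or 2 to 5 under other settings. Mmp7, the protease that activates alpha-defensins, rose from 94.2 and 101 to 244 and 174 CPM (1.10 ± 0.17, adjusted p = 0.00589). Defa24, an alpha-defensin, rose from 1116 and 1206 to 3549 and 2730.1 CPM (1.44 ± 0.18, adjusted p = 0.0023), and its reads cannot be told apart with certainty from those of near-identical defensin genes. Lyz1, the Paneth cell lysozyme, stood at 2016 and 1275 CPM in Eed KO and 1177 and 1431 in WT, with overlapping groups and no call (adjusted p = 0.405). Pla2g2a (ENSMUSG00000058908, chromosome 4, 138831857 to 138835186), a secreted phospholipase of Paneth cells, fell from 593 and 783 to 13.6 and 12.2 CPM (-5.74 ± 0.20, adjusted p = 1.61e-05). Its biotype in the table is polymorphic pseudogene, a gene intact in some strains and disrupted in others, which the rule on pseudogenes did not leave out. Of the 9 genes of that biotype tested, 4 rose and 4 fell, and for them too strain and genotype cannot be told apart. Mptx2, a pentraxin gene, fell from 163 and 192 to 55.3 and 48.1 CPM (-1.78 ± 0.14, adjusted p = 0.000403).

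**Figure D3:**
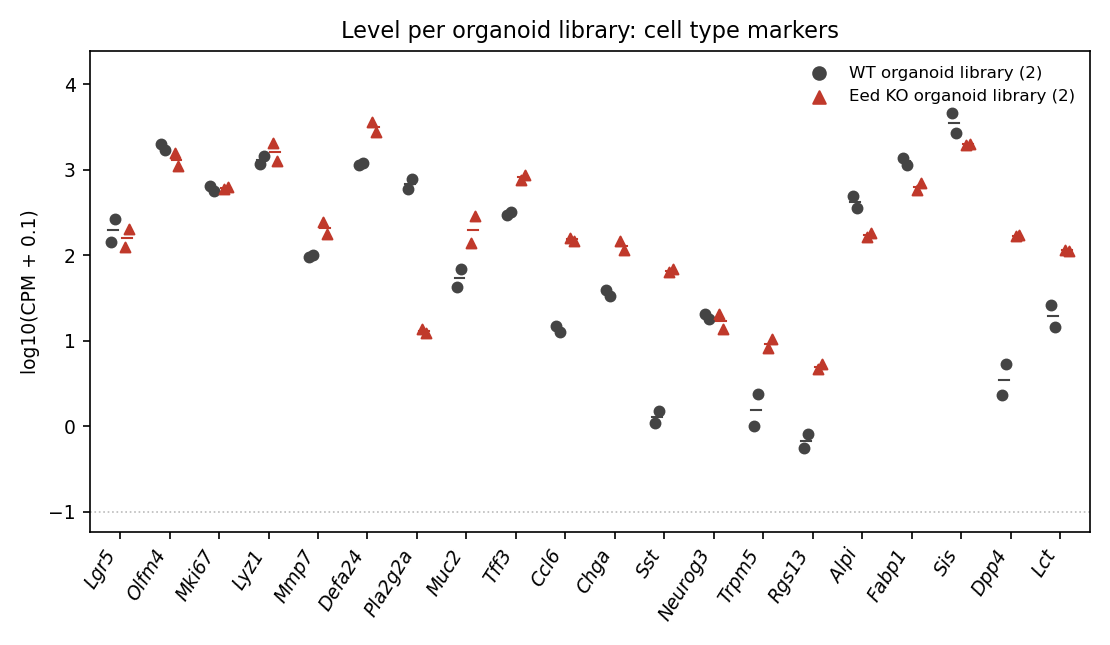
Level of 20 cell type markers in each organoid library, as log10 of CPM plus 0.1, with circles for the 2 WT and triangles for the 2 Eed KO libraries and a short line at the mean of each pair. Tff3, Ccl6, Chga, Sst, Dpp4 and Lct lie higher in both Eed KO libraries, Pla2g2a, Alpi and Fabp1 lower, and Lgr5, Mki67, Lyz1 and Neurog3 overlap.

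Enterocyte genes moved in both directions. Of 47 tested, 7 rose (14.9%, near the 13.4% of all genes tested) and 8 fell (17%, against 4.43%). The median log2 fold change was -0.26, with 32 genes below 0 and 15 above. The number that fell was 3 without WT 1, 3 without Eed KO 1 and 15 without WT 2, and 4 to 12 under other settings, and the number that rose was 4 without Eed KO 2. Alpi, the intestinal alkaline phosphatase, fell from 490.4 and 354 to 164 and 181 CPM (-1.29 ± 0.18, adjusted p = 0.00329). Fabp1, whose promoter is shown above, fell from 1382 and 1118 to 574 and 692 CPM (-0.98 ± 0.17, adjusted p = 0.00771), a call that was lost where the 8 libraries of the run shared the spread (adjusted p = 0.347). Sis, the sucrase-isomaltase, stood at 1954 and 2009 CPM in Eed KO and 4529 and 2643 in WT and was not called (adjusted p = 0.0655), while DESeq2 called it lower (adjusted p = 0.00141). In the other direction, Dpp4 (ENSMUSG00000035000, chromosome 2, 62330073 to 62412231), a brush border peptidase, stood at 166 and 172 CPM in Eed KO and 2.21 and 5.17 in WT (5.54 ± 0.33, adjusted p = 0.000367). Lct (ENSMUSG00000026354, chromosome 1, 128284756 to 128328318), the lactase of suckling enterocytes, rose from 26.1 and 14.4 to 116 and 111 CPM (2.48 ± 0.27, adjusted p = 0.00244), and the brush border protease gene Mep1a from 19.7 and 26.2 to 75.5 and 70.7 (1.67 ± 0.17, adjusted p = 0.000963). Krt20 was not called (0.10 ± 0.30, adjusted p = 0.869).

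Transcription factors of intestinal identity split in the same way, beside shares of 13.4% higher and 4.43% lower over all genes tested. Of 25, 5 rose and 8 fell, and the number that fell was 3 without WT 1 and 4 without Eed KO 1, and 5 at the lowest under other settings. The number that rose was 3 without Eed KO 1 and 3 without WT 2. Cdx1, a caudal homeobox factor of intestine, fell from 156 and 135 to 59.98 and 58.8 CPM (-1.29 ± 0.12, adjusted p = 0.000822). Its relative Cdx2 stood at 152 and 161 against 194 and 213 CPM and was not called (adjusted p = 0.0648). By edgeR, Cdx2 was called lower with no low-count filter (adjusted p = 0.0456) and with a block for the title numbers (adjusted p = 0.0102). Isx, a homeobox regulator of vitamin A uptake, fell from 143 and 143 to 68.7 and 73.2 CPM (-1.01 ± 0.11, adjusted p = 0.00146). Hnf4g fell from 605 and 415 to 211 and 229 CPM (-1.21 ± 0.19, adjusted p = 0.00597). Klf4, a factor of goblet and surface cells, rose from 22.4 and 30.8 to 52.2 and 68.3 CPM (1.18 ± 0.20, adjusted p = 0.00838), and Maf from 4.64 and 4.12 to 25.1 and 28.2 (2.60 ± 0.19, adjusted p = 0.000331).

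Crypt base stem cell genes were called at shares near those over all genes. Of 31 tested, 6 rose (19.4%, against 13.4%) and 2 fell (6.45%, against 4.43%), with a median log2 fold change of 0.13, and the number that fell was 4 without Eed KO 1 and as many without Eed KO 2, and up to 5 under other settings. The Wnt receptor partner Lgr5 stood at 125 and 199.6 CPM in Eed KO and 144 and 266 in WT, with overlapping groups (adjusted p = 0.638). Olfm4 stood at 1561 and 1091 against 2016 and 1714 CPM and was not called (adjusted p = 0.155), and neither were Ascl2 (adjusted p = 0.639) and the Wnt feedback gene Axin2 (adjusted p = 0.549). With a block for the title numbers, edgeR called Olfm4 (adjusted p = 0.0135) and Lgr5 (adjusted p = 0.0365) lower. The labels do not show that these numbers pair cultures. Igfbp4, a secreted Wnt modulator, rose from 6.01 and 11.6 to 73.4 and 92.0 CPM (3.24 ± 0.31, adjusted p = 0.00154). Cd44, an adhesion receptor and Wnt target, rose from 115 and 126 to 258 and 256 CPM (1.09 ± 0.12, adjusted p = 0.0012).

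Several secreted signals were present in Eed KO organoids that were near 0 in WT. For comparison, 13.4% of all genes tested rose and 4.43% fell. Among kept Wnt ligand genes 10 were too low to be tested, at 16 counts or fewer over the 4 libraries. Another 1 had no WT count and passed the filter on low counts only through Eed KO, as did Wnt4 with few WT counts. The counts therefore describe the genes that passed. Of 9 Wnt ligand genes tested 6 rose and none fell (median log2 fold change 3.55), with 4 called without Eed KO 1, 4 without WT 1 and 4 without WT 2. Wnt4 stood at 21.6 and 19.1 CPM in Eed KO and 0.304 and 0.0876 CPM in WT (6.58 ± 0.39, adjusted p = 0.000127). Wnt3, the ligand that Paneth cells supply to stem cells and also named after its values were seen, stood at 20.8 and 12.0 against 8.97 and 6.66 CPM and was not called. Of 19 Wnt targets and feedback genes 8 rose and none fell. Lef1, a Wnt effector, rose from 0.380 and 0.175 to 9.94 and 14.5 CPM (5.38 ± 0.44, adjusted p = 0.000464). Of 19 Hedgehog, BMP and FGF genes, 7 rose and none fell, or 4 without Eed KO 1 and 4 without WT 1. Shh, a Hedgehog ligand of the fetal gut, stood at 6.09 and 4.87 CPM in Eed KO and 0.152 and 0.175 in WT (4.99 ± 0.47, adjusted p = 0.000769), and Fgf15, an ileal hormone, at 7.70 and 3.30 in Eed KO and 0.0761 and 0.438 in WT (4.43 ± 0.74, adjusted p = 0.00781). Of 19 Notch pathway and secretory fate genes, 5 rose, Atoh1 and Spdef among them, or up to 8 under other settings. The receptor gene Notch3 rose from 0.989 and 1.40 to 11.9 and 12.8 CPM (3.37 ± 0.30, adjusted p = 0.000618).

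**Figure D4:**
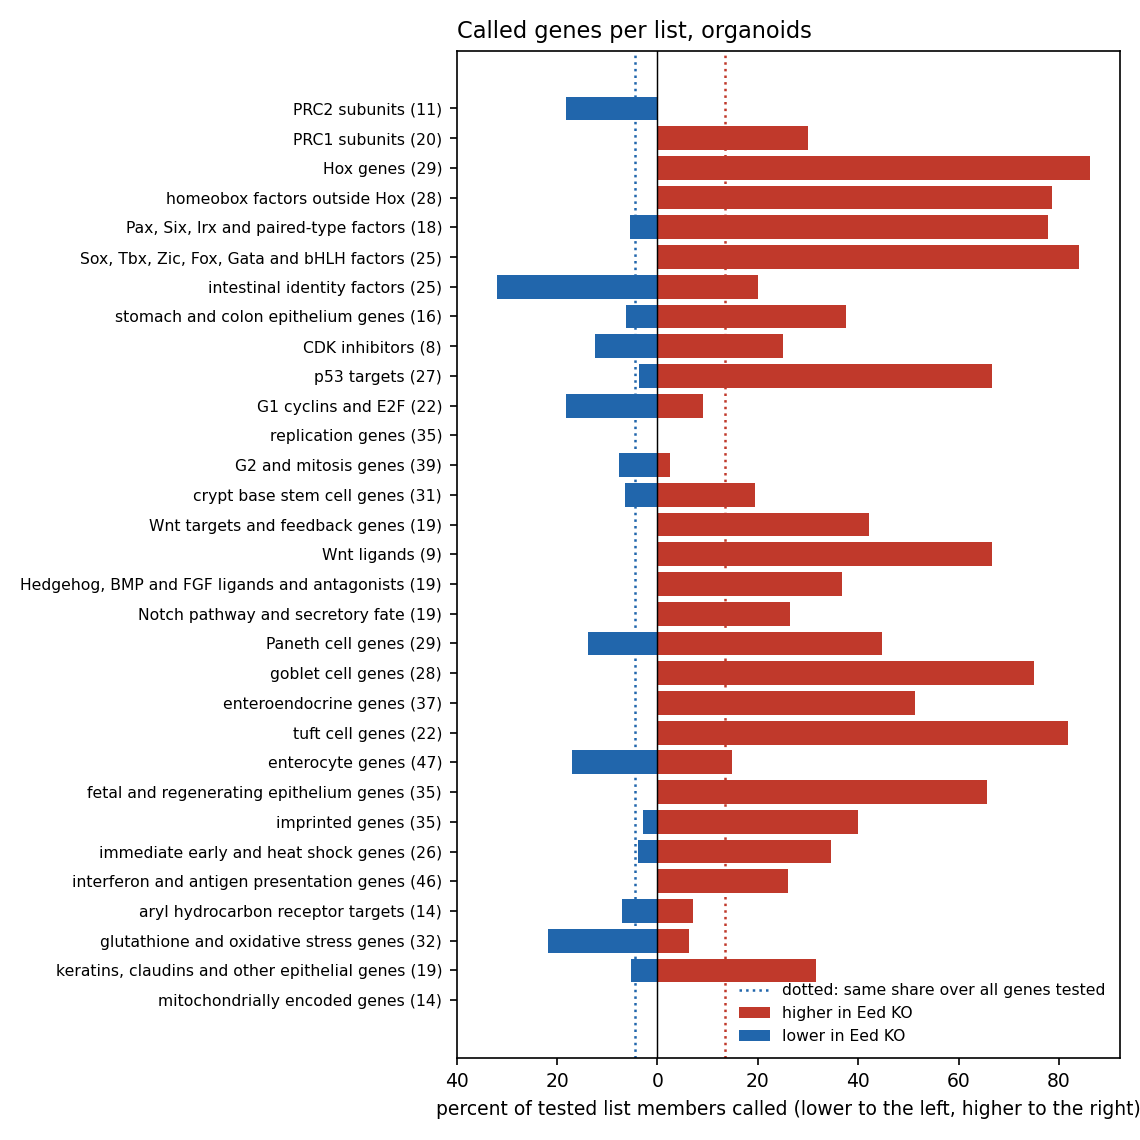
Percent of the tested members of each list that were called, higher in Eed KO to the right and lower to the left, with the number tested in parentheses, for lists with at least 8 members tested. The dotted lines mark the shares over all genes tested, 13.4% higher and 4.43% lower.

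Genes of fetal and regenerating epithelium rose without exception among those called. Of 35 tested 23 rose (65.7%, against 13.4% of all genes tested) and none fell, with a median log2 fold change of 1.69. Igf2bp1, an RNA binding protein of fetal tissue, stood at 40.7 and 41.1 CPM in Eed KO and 0.304 and 0 in WT (7.89 ± 0.45, adjusted p = 0.000127). Ly6a, the surface protein Sca-1, stood at 55.3 and 36.3 CPM in Eed KO and 2.74 and 2.63 in WT (4.09 ± 0.27, adjusted p = 0.000196). Gja1, which encodes connexin 43, stood at 33.4 and 21.7 CPM with no WT count, at least 226-fold higher (adjusted p = 0.000361). Clu, the marker of revival stem cells, stood at 663 and 290.0 CPM in Eed KO and 28.9 and 8.33 in WT. The Clu groups did not overlap, as in 59.2% of all genes tested, yet both groups spread widely. Its log2 fold change of 4.66 ± 0.90 was not called (adjusted p = 0.0591), while DESeq2 gave an adjusted p of 3.63e-05 and limma-trend 0.0293.

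Imprinted genes are expressed from 1 parental allele. Of 50 kept, 15 were too low to be tested, at 20 counts or fewer over the 4 libraries. Another 5 had no WT count and passed the filter on low counts only through Eed KO, as did H19 with few WT counts. The counts therefore describe the genes that passed. Of 35 tested, 14 rose (40%, where 13.4% of all genes tested rose) and 1 fell (2.86%, against 4.43%), with a median log2 fold change of 0.46. The lower one was the locus that the table names Snrpn, a gene of the spliceosome named after its values were seen, and its call was lost without Eed KO 1, WT 1 or WT 2. Igf2, a fetal growth factor, stood at 76.1 and 84.0 CPM in Eed KO and 0.532 and 1.31 in WT (6.46 ± 0.29, adjusted p = 5.38e-05). The neighbouring noncoding H19 stood at 15.3 and 6.19 CPM in Eed KO and 0.0761 and 0.175 in WT, with 3 WT counts in all, a ratio of 88.6-fold, with an exact 95% counting interval of 30.0 to 432 (adjusted p = 0.00211). Zdbf2 stood at 5.61 and 6.77 CPM with no WT count, at least 50.6-fold higher (adjusted p = 0.00089). Counts do not give the allele that was read.

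Interferon-stimulated genes separated the 2 Eed KO libraries. Summed over the 54 genes of the list, they stood at 1706 and 3396 CPM in Eed KO and 1529 and 1443 in WT, so the higher sum of Eed KO 2 set that library apart. Of 46 tested, 12 rose (median log2 fold change 2.30), but 35 were called without Eed KO 1, 21 without Eed KO 2, 4 without WT 1 and 4 without WT 2. Without Eed KO 2, 4 were called lower. Other settings called between 7 and 27 higher. Among all genes tested 13.4% rose and 4.43% fell. Ifit1 stood at 30.2 and 92.1 CPM in Eed KO and 1.67 and 1.05 in WT (5.46 ± 0.82, adjusted p = 0.0218), and its call was lost without WT 1 (adjusted p = 0.385) and without WT 2 (adjusted p = 0.378). The immune markers stayed near 0 in both Eed KO libraries, as given above.

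Targets of the aryl hydrocarbon receptor bear on the inducer that both genotypes received. Shares over all genes tested were 13.4% higher and 4.43% lower, and the counts of targets stand beside them. Of 14 tested, 1 rose and 1 fell, with 0 lower without Eed KO 1 and 2 without WT 1, and 0 to 3 under other settings. Cyp1a1, the most responsive target, stood at 761 and 739 CPM in Eed KO and 966 and 1299 in WT and was not called (adjusted p = 0.0542), while DESeq2 called it lower (adjusted p = 0.0056). Of 32 glutathione and oxidative stress genes 2 rose and 7 fell, 5 of them of the Gstm family. Gstm1, a glutathione transferase, fell from 1371 and 982 to 486 and 445 CPM (-1.34 ± 0.18, adjusted p = 0.00333). The lower count was 2 without WT 1, 4 without Eed KO 1 and 4 without Eed KO 2, and up to 11 under other settings, and reads of similar Gstm genes cannot be told apart with certainty.

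Remaining lists had mixed or few calls, to be read beside 13.4% higher and 4.43% lower over all genes tested. Of 16 stomach and colon epithelium genes 6 rose, or 3 without WT 1, and 1 fell, or 2 without Eed KO 2. Of 19 keratins, claudins and other epithelial genes 6 rose, or 2 without WT 1 and 3 without WT 2, and 1 fell. Among 26 immediate early and heat shock genes 9 rose, fewer without WT 1, and 1 fell, a call lost without Eed KO 2 or WT 1. None of 14 mitochondrially encoded genes was called. Of 7 germline and meiosis genes 3 rose and 1 fell, the latter lost without Eed KO 2 or WT 1. Of 6 enteric neuron and glia markers 4 rose and 1 fell. Their whole list summed to 33.8 and 33.5 CPM in Eed KO and 17.0 and 15.6 in WT. Too low to be tested were 22 kept germline genes, 9 neuron and glia markers and 16 stomach and colon genes. The germline genes Tdrd1 and Tex15 rose from 1 WT count each and passed the filter on low counts only through Eed KO. These counts describe the genes that passed.

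Further genes were among the extremes. Rdx and Hoxa10 had the highest fitted fold changes, both against no WT count, where only a bound exists and their order turned without Eed KO 1. Rdx (ENSMUSG00000032050, chromosome 9, 52047150 to 52088737), which encodes the membrane-cytoskeleton linker radixin, stood at 42.8 and 33.4 CPM in Eed KO with no count in WT, at least 312-fold higher (adjusted p = 0.0001). Ano3, an anoctamin of the TMEM16 family, stood at 29.4 and 24.7 CPM with no WT count, at least 222-fold higher (adjusted p = 0.000115). All of the 20 named genes with the highest fold changes had no WT count. At the other end, Retnlb (ENSMUSG00000022650, chromosome 16, 48816856 to 48818891), which encodes a secreted resistin-like peptide of goblet cells, stood at 0 and 0.165 CPM in Eed KO and 76.2 and 61.6 in WT. With 2 Eed KO counts in all, Retnlb was lower by a ratio of 853-fold, with an exact 95% counting interval of 236 to 7052 (adjusted p = 4.21e-05). Hmga1b, a retrogene copy of Hmga1, stood at 0.0802 and 0.0826 CPM in Eed KO and 46.0 and 52.8 in WT (adjusted p = 1.41e-05), also with 2 Eed KO counts in all. Rims4, a synaptic scaffold gene, stood at 1.84 and 1.82 CPM in Eed KO and 109 and 99.6 in WT (-5.82 ± 0.17, adjusted p = 9.64e-06). Its call was lost where the 8 libraries of the run shared the spread (adjusted p = 0.0697). In crypts of that run Rims4 stood at 31.9 and 0 CPM in WT and 1.96 and 0.424 in Eed KO, so the WT crypt libraries differed from each other. Strain cannot be told apart from genotype for Rims4 either. Rps3a3, a copy of a ribosomal protein gene, went the opposite way in organoids, at 287 and 224 CPM in Eed KO and 0.532 and 0.351 in WT (9.13 ± 0.26, adjusted p = 9.64e-06). Near-identical copies such as Hmga1b and Rps3a3 depend on how single reads were assigned, so their values are uncertain, and strain sequence cannot be told apart from genotype here. Of the 548 genes called lower, 37 were unnamed gene models (6.75%), against 5.26% of all genes tested. Within 10 Mb of Eed on chromosome 7, which is linked to the floxed allele, 20.2% of 99 genes were called, against 17.8% of all genes tested.

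The Eed KO and WT crypts of the same run, with 2 libraries each, give a second Eed comparison with no shared library. Their titles give 6 weeks, read here as the time of induction. Both genotypes carry the same mixed C57BL/6-FVB strain label, and the sex pattern is the reverse, with Xist high in Eed KO crypts. Fitted over the 8 libraries, 2493 genes (18.0%) were called higher and 1942 (14.1%) lower in Eed KO crypts. Of the 1659 genes higher in organoids, 999 (60.2%) were also called higher in crypts, which is 52.9% of the crypt-higher genes tested in both. Of the 548 genes lower in organoids, 263 (48%) were also called lower in crypts, which is 13.8% of the crypt-lower genes tested in both. The largest changes differed more by direction. Among the 605 genes over 8-fold higher in organoids 438 (72.4%) were called higher in crypts, whereas 3 of the 41 genes over 8-fold lower (7.32%) were called lower there. Of the 20 highest named genes 19 were called higher in crypts, and of the 20 lowest 2 were called lower there and 3 higher. All 25 Hox genes that rose in organoids rose in crypts too.

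The difference between the Eed effects in organoids and crypts was tested directly as an interaction, and 903 genes (6.54%) had a higher and 373 (2.70%) a lower log2 effect in organoids. Without any 1 WT library of either tissue the former number was between 514 (without WT crypt 1) and 547 (without WT organoid 2), with 543 without WT crypt 2 and 530 without WT organoid 1. The latter number was 205, 233, 238 and 241 without WT crypt 1, WT crypt 2, WT organoid 1 and WT organoid 2. Most G2 and mitosis genes were lower in Eed KO crypts (38 of 39), and 32 had an effect above that in crypts. That number was 17 without WT crypt 1 and 20 without WT organoid 2. Mki67 had a log2 fold change of -1.39 ± 0.16 in crypts (adjusted p = 0.000125) and a difference of 1.39 ± 0.22 (adjusted p = 0.00359). Olfm4 had -3.52 ± 0.22 in crypts (adjusted p = 4.43e-06) and a difference of 3.03 ± 0.29 (adjusted p = 0.000221). Secretory genes also differed. An effect above that in crypts was called for 18 of 37 enteroendocrine genes, 12 of 22 tuft cell genes, 15 of 29 Paneth cell genes and 12 of 28 goblet cell genes. The tuft cell number was 7 without WT crypt 1. Among enterocyte genes 25 of 47 were lower in Eed KO crypts, and 15 had an effect above that in crypts. For p53 targets the sign was the reverse, with 10 of 27 below the effect in crypts, or 6 without either WT crypt library, either WT organoid library or Eed KO organoid 2. Cdkn1a had a log2 fold change of 2.75 ± 0.23 in crypts and a difference of -1.91 ± 0.31 (adjusted p = 0.00395). Retnlb differed in direction between the tissues, at 1.48 ± 0.45 in crypts (adjusted p = 0.0293) and with a difference of -11.03 ± 0.70 (adjusted p = 1.23e-05). Time of induction, culture and sex pattern differ between the tissues along with the tissue itself, and their parts in these differences cannot be told apart.

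**Figure D5:**
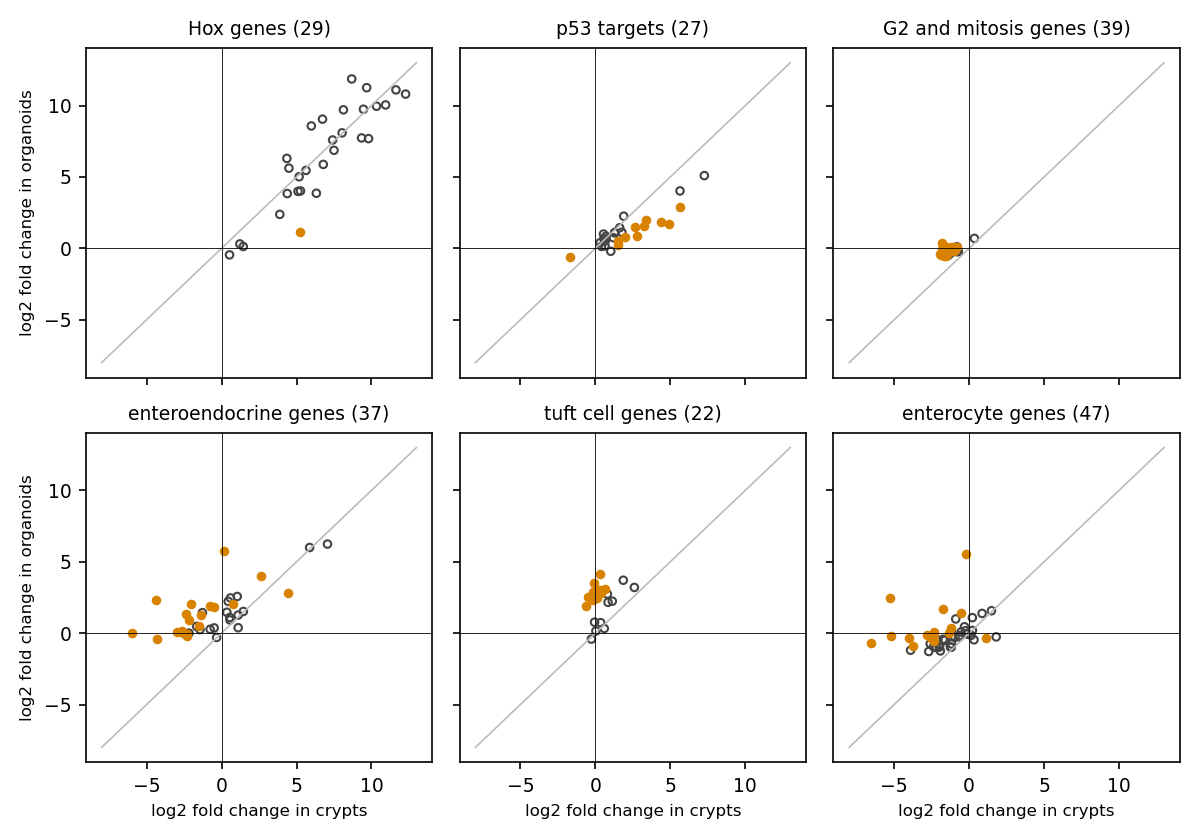
Log2 fold change of Eed KO over WT in organoids against that in crypts of the same run, for the tested members of 6 lists, with the number of genes in parentheses. Filled orange points have an adjusted p under 0.05 for the difference between tissues, open points do not, and the diagonal marks equal effects; most G2 and mitosis genes lie above it.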

How the data were processed

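RNA was measured by TruSeq Stranded mRNA sequencing of organoids taken out of Matrigel and lysed in TRIzol, per the labels' protocols. The deposited table of run 385 holds raw read counts per gene, per the file headers, with Ensembl identifiers and positions on GRCm38. The submitters' processing notes name TopHat2 2.0.12, Bowtie 0.12.9, HTSeq, DESeq2 and GRCm38, without their roles, and the strand setting of the counting is named in none of the sources used here. Overlapping antisense genes therefore cannot be told apart. Symbols came from the reference annotation for 23553 genes and from the table for 416.

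The whole table of the 4 organoid libraries was filtered for low counts (a minimum count of 10 and a total of 15), scaled by TMM and tested with edgeR's quasi-likelihood test (edgeR 4.0.16, limma 3.58.1, R 4.3.3), with 2 residual degrees of freedom and Benjamini-Hochberg adjustment over all 12958 genes fitted. Genes on X and Y and of biotype pseudogene were then set aside, leaving 12384, among them 9 of biotype polymorphic pseudogene. The tissue comparison and its interaction term used all 8 libraries of the run. Fold changes are log2 with their standard error. Folds against a group without counts are bounds from 3 counts over the group, ratios against 1 to 3 counts have exact 95% intervals, and both cover counting error only, since reads carry no molecular identifiers. With 2 libraries against 2, an exact permutation test of a single value cannot go below p = 0.333, so none is given.

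The genes to name were the PRC2 genes, a set of standard markers, up to 6 called genes per list by size of change, the 20 highest and 20 lowest called fold changes with a mean of at least 5 CPM and no overlap, and the 15 largest CPM differences each way. Those described were picked from them after their values were seen. The members, lists and tests were chosen with earlier results of these data known. Alternatives were other size factors, library totals, other filters, DESeq2 1.42.0, limma-trend, a fit of 8 libraries, a replicate block and leaving out each library. Promoters came from RefSeq's table for GRCm38.p6.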

Additional observations from a re-analysis of the deposited data

Results flagged for a closer look

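For 40 of the genes named, the Eed effect in organoids differed from that in crypts of the same run by the interaction test of edgeR, and each value in parentheses is the log2 effect in organoids minus that in crypts. Of these, 30 were above and 10 below the effect in crypts, and 24 stayed past the threshold with each of the 8 libraries left out in turn. Most genes of secretory cells among them differed upward, with Sst (5.64), Chga (2.39), Neurog3 (2.11), Pax6 (1.35), Dclk1 (3.08), Trpm5 (2.67), Rgs13 (2.44), Lyz1 (3.04), Defa24 (2.06), Muc2 (2.13), Tff3 (1.01) and Ccl6 (2.86), while the secretory genes Sct (-1.61) and Pla2g2a (-4.27) and Retnlb, given below, differed downward. Enterocyte genes and intestinal identity factors differed upward, with Lct (7.73), Dpp4 (5.76), Mep1a (3.43), Krt20 (2.44), Cdx2 (2.23), Cdx1 (0.82), Isx (2.14), Maf (3.11) and Klf4 (1.98). Genes of the crypt base, the cell cycle and PRC2 that were not called or rose in organoids gave Mki67 (1.39), Olfm4 (3.03), Axin2 (1.39), Igfbp4 (1.82) and Ezh2 (0.72), and other upward differences were Fgf15 (5.28) and Fn1 (4.12). The p53 targets differed downward, with Cdkn1a (-1.91), Ccng1 (-1.16), Plk2 (-2.50) and Phlda3 (-2.73), each with a larger fitted rise in crypts. Another downward difference was that of Gstm1 (-2.08). For Cdkn2a (-3.63), Rps3a3 (9.09), Rdx (7.22), Hmga1b (-13.68) and Retnlb (-11.03) at least 1 of the 4 groups had few or no counts, so the fitted size depends on the prior count and is no bound. Cdkn2a stood at alike levels in Eed KO crypts and organoids, and its WT crypts held 1 count in all. The differences of Fgf15, Fn1, Dclk1, Rgs13, Krt20, Muc2, Neurog3, Igfbp4, Axin2, Pax6, Tff3, Cdx1, Ezh2, Ccng1, Cdkn2a and Hmga1b lost their call without at least 1 library. Culture, time of induction and sex pattern differ with the tissue, and their part was not tested.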

How the results depend on the processing

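The main counts of 1659 higher and 548 lower genes were within 1.5 times under every setting other than the replicate block and left-out libraries. With RLE size factors 1663 and 564 were called, with library totals 1822 and 399, with no low-count filter 2086 and 791 of 17992, and with DESeq2 1569 and 612. With one library left out, the higher count ran from 1025 to 1493 and the lower count from 220 to 632. The count of genes with an Eed effect above that in crypts ran from 514 to 1302 and that below from 205 to 531. The single genes called lower among p53 targets, imprinted, immediate early and germline genes were not called under at least 1 other setting. With the replicate block, 2341 genes were called higher and 1362 lower. Same-numbered libraries shared deviations with a correlation of 0.396 over 10105 genes, but 2 pairs and the labels do not show that a number pairs cultures, and the fit has 1 residual degree of freedom fewer. Of 1183 values of named genes over the alternatives, 1130 kept their direction and side of the threshold, 17 lost a call, 24 gained one and 12 changed sign. All 12 belong to genes that were not called. With one library left out, their log2 fold changes ran for Ezh1 from -0.23 to 0.18, for Mki67 from -0.0877 to 0.11, for Hes1 from -0.0881 to 0.30, for Lgr5 from -0.72 to 0.18, for Lyz1 from -0.0355 to 0.63, for Krt20 from -0.42 to 0.48 and for Neurog3 from -0.51 to 0.11. Ezh1 also went to 0.0694 with library totals, and Mki67 to -0.00231 with no low-count filter and -0.00628 with DESeq2. Depth limits genes of few counts most, since a gene with no WT count has only a bound, and 2 libraries a group limit every test. Strain and sex pattern cannot be told apart from genotype in the organoids, and the cause of the shifts was not tested.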
